A study of Mus musculus with 12 samples.

Results

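The 10 genes described here encode the enzymes that assemble triglyceride: the glycerol-3-phosphate acyltransferases Gpam, Agpat9 and Agpat6, the lysophosphatidate acyltransferases Agpat1, Agpat2 and Agpat3, the lipins Lpin1 and Lpin2, and the diacylglycerol acyltransferases Dgat1 and Dgat2. They were chosen by name from the 39248 rows of the deposited table, each had 1 row, and all 10 were among the 14706 rows tested. The libraries came from 3T3-L1 adipocytes, a clonal mouse preadipocyte line differentiated in culture into fat-storing cells, given siRNA by electroporation 2 days after differentiation at a dose of 0.75 nmol. In 6 libraries Zfp407, the gene of a zinc finger protein, was targeted with siRNA, by 1 siRNA in 3 of them and by another in the other 3, and 6 libraries received a control siRNA. All libraries came from the same cell line, so p-values measure the spread between libraries of that line, not between animals. The sample titles do not say whether each library was a separate electroporation. The table's columns do not name the siRNA of a knockdown library, so the 6 formed 1 arm, and its spread includes any difference between the siRNAs.

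Triglyceride is built on glycerol-3-phosphate. An acyltransferase adds a fatty acid to give lysophosphatidate, and another acyltransferase adds a further one to give phosphatidate. The lipins remove the phosphate to give diacylglycerol, and a diacylglycerol acyltransferase adds the last fatty acid. In fat cells this route fills the lipid droplet, while phosphatidate and diacylglycerol also feed phospholipid synthesis. Each step is shared by several enzymes: GPAM sits on the mitochondrial outer membrane, whereas the products of Agpat9 (now named Gpat3) and Agpat6 (now named Gpat4) act at the endoplasmic reticulum.

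Values are FPKM, fragment counts divided by transcript length and by the mapped fragments of the library, which allow levels of different genes to be compared. Differences are log2 fold changes of FPKM + 1, Zfp407 siRNA over control siRNA, from limma, called at a Benjamini-Hochberg adjusted p under 0.05 over all rows tested. Zfp407 itself averaged 1.79 ± 0.208 FPKM in Zfp407 siRNA libraries and 2.83 ± 0.178 FPKM in control libraries (SD, n = 6 each), so that its mean fell by 36.9% with no overlap between arms (log2 fold change −0.46, limma adjusted p = 8.00e-05). The libraries' summed FPKM spanned 2772929 to 3748488, and their relative depths, read from the worth of 1 read in low rows, spanned 0.88 to 1.15 with control library 1 set to 1. Mitochondrial transcripts took 19.4% to 32.8% of summed FPKM in Zfp407 siRNA libraries, the highest in library 6, and 22.7% to 25.3% in control libraries. Markers of the labelled cell type were abundant, with Fabp4 at 9413 ± 1468 FPKM and Adipoq at 2476 ± 233 FPKM in Zfp407 siRNA libraries, against Fabp4 at 9588 ± 1164 FPKM and Adipoq at 3026 ± 289 FPKM in control libraries (SD, n = 6 each). The 9 preadipocyte markers with a row summed to 1032 to 1345 FPKM in Zfp407 siRNA libraries and 1148 to 1293 FPKM in control libraries, of which Dlk1 made up most, and the 5 leukocyte markers with a row summed to at most 0.109 FPKM in Zfp407 siRNA libraries and 0.165 FPKM in control libraries, with Emr1 listed at 0 throughout. Of the 10 adipocyte markers, 6 were called lower and 0 higher in Zfp407 siRNA libraries, and of 7 preadipocyte markers tested 1 was called lower and 0 higher, beside 24.8% of all rows called lower and 11.6% called higher. Their part in the results below was not tested.

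Of the 10 genes, 2 were higher, 3 were lower and 5 were not called in Zfp407 siRNA libraries. Agpat9 rose by 67.8% and Dgat2 by 23.1% in mean FPKM, while Dgat1, Agpat2 and Lpin2 fell. In libraries made from whole cultures, fewer cells of a type and less RNA per cell cannot be told apart. Of all rows tested, 36.4% were called, 11.6% higher and 24.8% lower, and with 10 genes the count of 5 is given beside these shares only. The median log2 fold change of the 10 genes was −0.08, beside −0.05 over all rows tested. Against a minimum fold of 1.2, which 5.82% of all rows passed (2.13% higher, 3.69% lower), Agpat9 alone of the 10 was called. The arms did not overlap in 3 of the 10 genes, Agpat9, Agpat2 and Dgat1, and in 19.5% of all rows (5.51% higher, 13.9% lower).

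**Figure D1:**
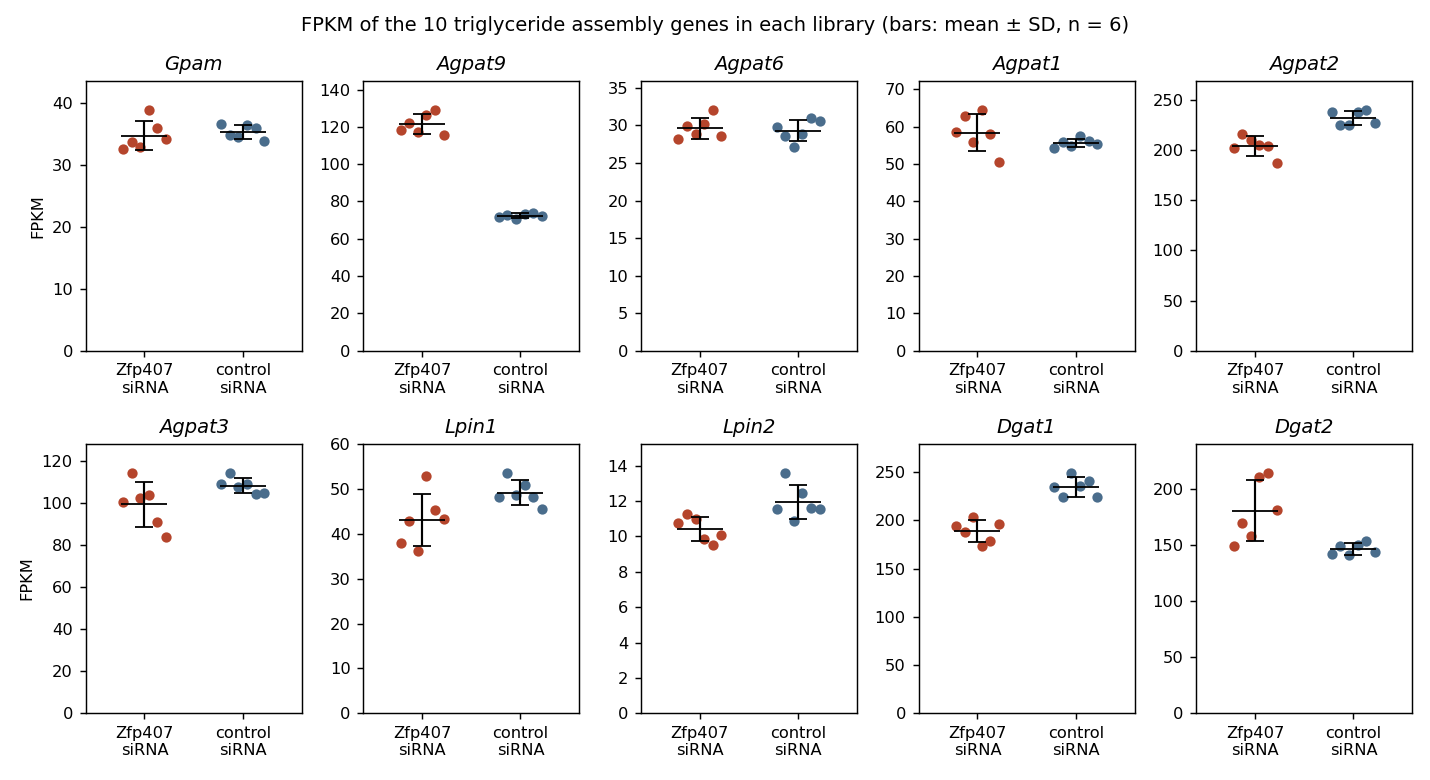
FPKM (vertical axes, each starting at 0) of each of the 10 genes, with 1 point per library and the mean ± SD (n = 6 each), Zfp407 siRNA left and control siRNA right. All 6 Zfp407 siRNA libraries lie above the control libraries for Agpat9 and below them for Agpat2 and Dgat1, and the points of Dgat2 are spread from 149 to 214 FPKM in the Zfp407 siRNA arm.

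In part of the low rows, the deposited FPKM differ between the arms by an amount that the spread between libraries does not show. In rows with a mean under 0.5 FPKM, where single reads can be recognised as whole multiples, what 1 read is worth was compared, leaving out rows 0.5 or more apart (log2). Between the arms it was over 0.01 apart (log2) in 345 of 1138 rows (30.3%). The median size in those 345 was 0.16, and the 90th percentile over all 1138 was 0.23. Within an arm it was this far apart in 4.09% of 538 rows (Zfp407 siRNA) and 4.29% of 489 rows (control siRNA). Agpat9, Dgat1 and Dgat2 had changes larger than 0.23 on this scale. As a 90th percentile, 0.23 is not an upper limit, so a change above it is not thereby cleared of such a difference. The falls of Agpat2 and Lpin2 cannot be told apart from an amount of this size, should it also occur at their level. It was not measured at the levels of the 10 genes, and the same limit holds for every other gene named below with a change of 0.23 or less in size.

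The sequences just before the start sites of Agpat9, which rose, and Agpat2, which fell with no overlap between arms, are shown because they are the called genes with non-overlapping arms that had an entry among the RefSeq windows (GRCm38.p6). Both are the 250 bases upstream of the RefSeq start, 5′ to 3′ on the gene's strand, and capitals mark the GC box, GGGCGG in either orientation. In GENCODE M21 the Agpat9 gene starts earlier, at 100845713, so its window lies inside the gene of that annotation. Agpat9 lies on the plus strand, at chr5:100845979-100846228, and Agpat2 on the minus strand, at chr2:26604418-26604667.
Agpat9: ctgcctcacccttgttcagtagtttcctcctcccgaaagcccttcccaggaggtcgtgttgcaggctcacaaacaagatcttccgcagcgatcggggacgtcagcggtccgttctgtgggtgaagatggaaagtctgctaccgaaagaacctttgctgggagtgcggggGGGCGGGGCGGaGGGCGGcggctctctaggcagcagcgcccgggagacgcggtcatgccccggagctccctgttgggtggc
Agpat2: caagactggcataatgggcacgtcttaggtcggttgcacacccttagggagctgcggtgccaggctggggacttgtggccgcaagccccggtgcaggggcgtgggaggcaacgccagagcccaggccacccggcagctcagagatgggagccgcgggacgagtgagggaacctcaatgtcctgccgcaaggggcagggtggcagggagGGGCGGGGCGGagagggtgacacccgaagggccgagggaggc
The Agpat9 window holds 3 GC boxes, starting 81, 76 and 69 bases before the start site, and the Agpat2 window holds 2, starting 42 and 37 bases before it. In each window the first pair overlaps by 1 base. GC boxes stood in 32.7% of the 32851 windows searched, and the windows of the rising and the falling gene share this feature. Neither window holds a CCAAT box (CCAAT, in 33.8% of windows), an E-box (CACGTG, 6.02%), a nuclear receptor half-site (AGGTCA, 14.0%) or a TATA box (TATAAA, 12.4%), each searched on both strands. Of the 10 genes, 7 matched, with 11 windows in all. Among the other windows, GC boxes stood in both of Agpat1, 2 of 3 of Lpin2 and 1 of 2 of Gpam. Half-sites stood in the Lpin1 window and in 1 window each of Agpat1 and Gpam. CCAAT boxes stood in 1 window each of Agpat1, Lpin2 and Gpam, and the 1 E-box stood in a window of Lpin2. For that Lpin2 window, the bases checked just after the start site were not found in a GENCODE M21 transcript of the gene. The same held for the Gpam window with the GC box and the half-site. The Agpat3 window held none of the 5 motifs. The Lpin1 window (start site 16610966) lies outside the deposited Lpin1 row, which ends at 16589815. Likewise, the Gpam window with the CCAAT box (start site 55127238) lies outside the deposited Gpam row, which ends at 55107049.

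In the first step, glycerol-3-phosphate acylation, Agpat9 rose and the other acyltransferases of the step were not called. Agpat9 was at 118, 122, 117, 126, 129 and 116 FPKM in Zfp407 siRNA libraries 1 to 6, against 71.8, 72.5, 70.6, 73.2, 74.0 and 72.4 FPKM in control libraries 1 to 6. All 6 Zfp407 siRNA libraries stood above all control libraries, and the arms were far apart relative to the spread within each. Means were 121 ± 5.30 FPKM in Zfp407 siRNA libraries and 72.4 ± 1.17 FPKM in control libraries (SD, n = 6 each), a fold of 1.68 (log2 fold change 0.74, SE 0.03, 95% interval 0.66 to 0.81, limma adjusted p = 1.65e-08). Against a minimum fold of 1.2 the limma adjusted p was 8.41e-07, and the exact permutation p on mean FPKM was 0.00216, two-sided, the smallest that the divisions of 12 libraries into 6 and 6 allow. In the authors' deposited table Agpat9 was the 1 gene of the 10 marked significant, with a log2 fold change of 0.76 and a q-value of 2.48e-04.

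The Agpat9 row (XLOC_025800) covers chromosome 5, 100805127 to 100899105 on GRCm38, and the gene's merged exons hold 3502 bases, of which 1311 are shared in GENCODE M21 with 4930458D05Rik on the other strand and Gm42987 on the same strand. The sources used here do not say whether the libraries keep strand, so reads from these cannot be told apart from those of Agpat9 over the shared bases. The locus held 5 rows of the table. Fam175a, at the same locus, had a log2 fold change of −0.03 (limma adjusted p = 0.803). A short-RNA row there, SNORA42 (XLOC_025799), was listed at 8.57, 4.24, 3.98, 29.0, 39.7 and 4.26 FPKM in Zfp407 siRNA libraries 1 to 6, against 0, 10.4, 0, 0, 0 and 4.68 FPKM in control libraries 1 to 6. Its Zfp407 siRNA libraries were higher overall (limma adjusted p = 0.0275), but the arms overlapped and libraries 4 and 5 stood far above the rest. How the authors' estimation divided reads between this row and Agpat9 was not tested.

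Gpam, the mitochondrial enzyme, had a lowest, median and highest value of 32.5, 33.9 and 38.9 FPKM in Zfp407 siRNA libraries, against 33.8, 35.4 and 36.6 FPKM in control libraries. The arms overlapped, with library 4 above every control library and 3 libraries below all of them. Its log2 fold change was −0.03 (95% interval −0.12 to 0.07, limma adjusted p = 0.654). Agpat6 had a lowest, median and highest value of 28.2, 29.4 and 32.1 FPKM in Zfp407 siRNA libraries, against 27.2, 29.3 and 31.0 FPKM in control libraries. The arms lay almost on top of each other, with a log2 fold change of 0.02 (95% interval −0.08 to 0.11, limma adjusted p = 0.801). Both intervals leave out a fold of 1.2 in either direction, so changes of the size of that of Agpat9 lie outside them. The intervals measure the spread between libraries only and do not include the difference between arms seen in low rows. The Gpam row (XLOC_016927) lies on chromosome 19, 55067634 to 55107049, and the Agpat6 row (XLOC_033631) on chromosome 8, 23171316 to 23208453.

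The make-up of the first step shifted with Agpat9. The 3 acyltransferases summed to 186 ± 8.46 FPKM in Zfp407 siRNA libraries and 137 ± 2.88 FPKM in control libraries (SD, n = 6 each). Agpat9 supplied 65.4% ± 0.551 of that sum in Zfp407 siRNA libraries and 52.8% ± 0.523 in control libraries. The share of Gpam was 18.7% ± 0.717 in Zfp407 siRNA libraries and 25.8% ± 0.658 in control libraries, and that of Agpat6 was 15.95% ± 0.306 in Zfp407 siRNA libraries and 21.4% ± 0.712 in control libraries. The ratio of Agpat9 to Agpat6 FPKM lay between 4.03 and 4.20 in Zfp407 siRNA libraries and between 2.36 and 2.60 in control libraries, so the ratio varied little among libraries of an arm. These shares follow from the gene values above and carry no test of their own.

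**Figure D2:**
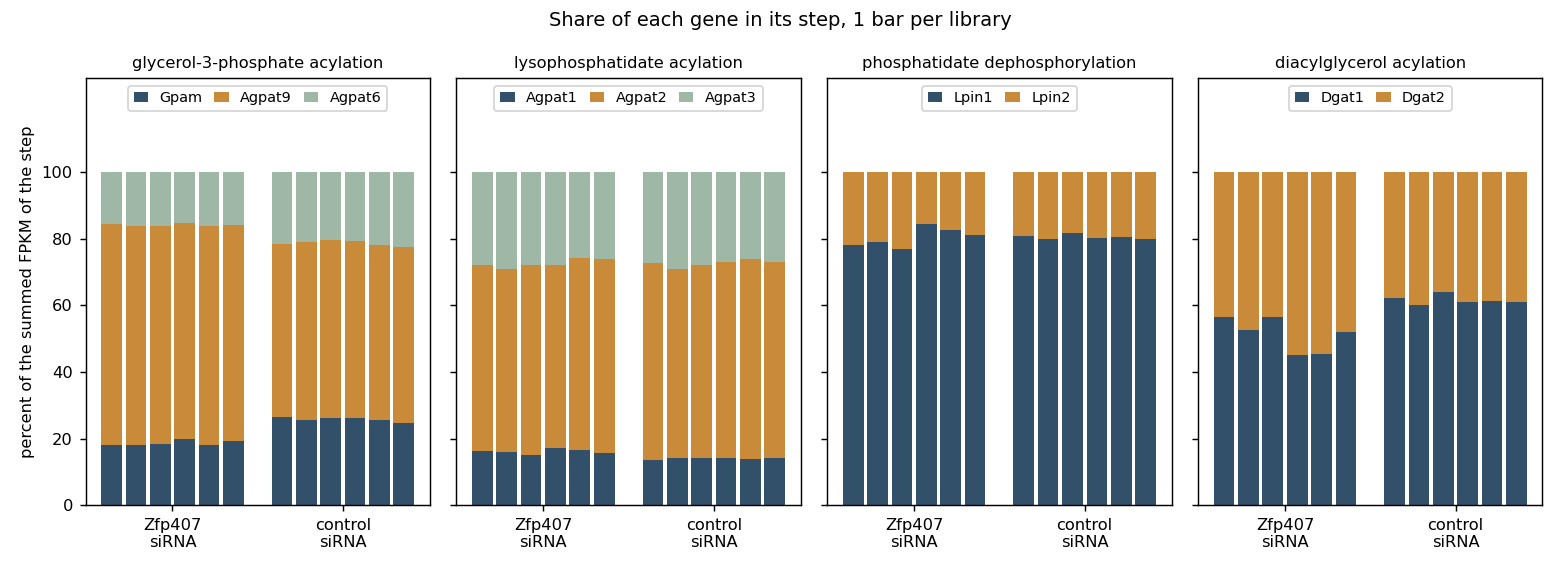
Percent of the summed FPKM of each step (vertical axis) supplied by each gene, with 1 stacked bar per library, Zfp407 siRNA libraries 1 to 6 left and control libraries 1 to 6 right in each panel. Agpat9 takes 64.7% to 66.1% of its step in Zfp407 siRNA libraries and 52.0% to 53.4% in control libraries, and Dgat1 takes 45.2% to 56.6% of the last step in Zfp407 siRNA libraries and 60.0% to 63.9% in control libraries.

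In the second step, lysophosphatidate acylation, Agpat2 fell and Agpat1 and Agpat3 were not called. Agpat2, whose human counterpart is mutated in a congenital generalised lipodystrophy, had a lowest, median and highest value of 187, 205 and 216 FPKM in Zfp407 siRNA libraries, against 225, 232 and 240.0 FPKM in control libraries. Every Zfp407 siRNA library lay below every control library. Means were 204 ± 9.99 FPKM in Zfp407 siRNA libraries and 232 ± 7.19 FPKM in control libraries (SD, n = 6 each), so that Agpat2 fell by 12.2% (log2 fold change −0.19 with SE 0.04, limma adjusted p = 0.00331, two-sided exact permutation p = 0.00216). It was not called against a minimum fold of 1.2 (limma adjusted p = 1), and the authors' deposited table gives it a q-value of 0.99999.

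Agpat1, an endoplasmic reticulum enzyme of the same step, had a lowest, median and highest value of 50.5, 58.3 and 64.5 FPKM in Zfp407 siRNA libraries, against 54.3, 55.6 and 57.6 FPKM in control libraries. The Zfp407 siRNA libraries spread to both sides, 4 above the highest control library and 1, library 6, below the lowest. The log2 fold change was 0.06 (95% interval −0.05 to 0.18, limma adjusted p = 0.377). Agpat3 had a lowest, median and highest value of 83.8, 102 and 115 FPKM in Zfp407 siRNA libraries, against 104, 109 and 115 FPKM in control libraries. Here 5 of 6 Zfp407 siRNA libraries lay below the lowest control library, while library 2 reached the top of the control range (log2 fold change −0.13, 95% interval −0.27 to 0.01, limma adjusted p = 0.145). Without library 2 the log2 fold change of Agpat3 was −0.17 with a limma adjusted p of 0.0395, so that library decides the call. Under the other 18 of 19 alternatives Agpat3 stayed uncalled. Without library 6 its log2 fold change was −0.08 (limma adjusted p = 0.259).

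The step as a sum held 362 ± 24.4 FPKM in Zfp407 siRNA libraries and 396 ± 7.46 FPKM in control libraries (SD, n = 6 each). Agpat2 supplied 56.4% ± 1.41 of it in Zfp407 siRNA libraries and 58.6% ± 1.04 in control libraries, and Agpat3 supplied 27.4% in both arms. The Agpat2 row (XLOC_019058) covers chromosome 2, 26580014 to 26636497, and 64 of its 2130 exon bases are shared with Egfl7, whose row had a log2 fold change of −0.10 (limma adjusted p = 0.166). The Agpat1 row (XLOC_013822) covers chromosome 17, 34604262 to 34629019, beside the row naming Egfl8 and Ppt2, which fell (log2 fold change −0.17, limma adjusted p = 0.0302) and shares 101 of the 3001 exon bases of Agpat1. The Agpat3 row (XLOC_003073) covers chromosome 10, 78249231 to 78352489.

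In the third step, the lipins convert phosphatidate to diacylglycerol, and they can also act in the nucleus as transcriptional coregulators. Lpin1, whose loss causes lipodystrophy in the fatty liver dystrophy mouse, had a lowest, median and highest value of 36.2, 42.9 and 52.7 FPKM in Zfp407 siRNA libraries, against 45.5, 48.4 and 53.6 FPKM in control libraries. Libraries 1, 2, 3, 5 and 6 lay below every control library, and library 4 was inside the control range. Means were 43.0 ± 5.86 FPKM in Zfp407 siRNA libraries and 49.1 ± 2.78 FPKM in control libraries (SD, n = 6 each), and the difference was not called (log2 fold change −0.20, 95% interval −0.37 to −0.02, limma adjusted p = 0.0726). Without Zfp407 siRNA library 4 it was −0.26 with a limma adjusted p of 0.00831, so 1 library decides this call too. Under the other 18 of 19 alternatives Lpin1 stayed uncalled. Without Zfp407 siRNA library 3 its log2 fold change was −0.15 (limma adjusted p = 0.146).

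Lpin2, the less abundant lipin, had a lowest, median and highest value of 9.53, 10.4 and 11.3 FPKM in Zfp407 siRNA libraries, against 10.8, 11.6 and 13.6 FPKM in control libraries. The arms overlapped, with 4 of 6 Zfp407 siRNA libraries below the lowest control library. Means were 10.4 ± 0.691 FPKM in Zfp407 siRNA libraries and 11.9 ± 0.969 FPKM in control libraries (SD, n = 6 each), so that Lpin2 fell by 12.7% (log2 fold change −0.18, SE 0.06, limma adjusted p = 0.0242). The call was lost when each library was centred on its median (−0.15, limma adjusted p = 0.0950), under quantile normalisation (−0.14, limma adjusted p = 0.0971), without control library 4 (−0.17, limma adjusted p = 0.0526) and without Zfp407 siRNA library 5 (−0.16, limma adjusted p = 0.0513). The authors' deposited table gives Lpin2 a q-value of 0.99999.

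Lpin1 made up 80.3% ± 2.87 of the lipin sum in Zfp407 siRNA libraries and 80.5% ± 0.735 in control libraries (SD, n = 6 each). The means of the ratio of Lpin1 to Lpin2 FPKM were close in the arms, 4.17 ± 0.779 in Zfp407 siRNA libraries and 4.12 ± 0.198 in control libraries, but the Zfp407 siRNA libraries ran from 3.30 to 5.34 and the control libraries from 3.94 to 4.47. The third lipin, Lpin3, was under the filter, at 0.618 ± 0.228 FPKM in Zfp407 siRNA libraries and 0.606 ± 0.236 FPKM in control libraries. The Lpin1 row (XLOC_007228) covers chromosome 12, 16534841 to 16589815, and the Lpin2 row (XLOC_014137) covers chromosome 17, 71182560 to 71249817.

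In the last step the members of the pair moved in opposite directions: Dgat1 fell and Dgat2 rose. DGAT1 and DGAT2 make the same product but are unrelated in sequence, and DGAT2 is linked to the use of newly made fatty acids and to lipid droplets. Dgat1 was at 194, 188, 204, 173, 178 and 196 FPKM in Zfp407 siRNA libraries 1 to 6, against 234, 224, 249, 236, 241 and 224 FPKM in control libraries 1 to 6. Every Zfp407 siRNA library lay below every control library, with libraries 4 and 5 lowest. Means were 189 ± 11.6 FPKM in Zfp407 siRNA libraries and 235 ± 9.98 FPKM in control libraries (SD, n = 6 each), so that Dgat1 fell by 19.5% (log2 fold change −0.31 with SE 0.05, limma adjusted p = 3.26e-04, two-sided exact permutation p = 0.00216). It was not called against a minimum fold of 1.2 (limma adjusted p = 0.954), and in the authors' deposited table its p-value was 0.150 and its q-value 0.99999.

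Dgat2 was at 149, 169, 158, 210.0, 214 and 181 FPKM in Zfp407 siRNA libraries 1 to 6, against 142, 149, 141, 150.0, 153 and 144 FPKM in control libraries 1 to 6. Of the Zfp407 siRNA libraries, 5 lay above every control library and library 1 lay within the control range. Libraries 4 and 5, the lowest for Dgat1, were the highest for Dgat2. Means were 180.2 ± 27.1 FPKM in Zfp407 siRNA libraries and 146 ± 5.07 FPKM in control libraries (SD, n = 6 each), 23.1% higher (log2 fold change 0.29, SE 0.09, 95% interval 0.10 to 0.47, limma adjusted p = 0.0202, two-sided exact permutation p = 0.00866). It was not called against a minimum fold of 1.2 (limma adjusted p = 1), and in the authors' deposited table its p-value was 0.0351 and its q-value 0.636.

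The sum of both genes was 369 ± 18.3 FPKM in Zfp407 siRNA libraries and 381 ± 10.7 FPKM in control libraries (SD, n = 6 each), and carries no test. The ratio of Dgat1 to Dgat2 FPKM was 1.30, 1.11, 1.29, 0.824, 0.831 and 1.08 in Zfp407 siRNA libraries 1 to 6, against 1.65, 1.50, 1.77, 1.57, 1.57 and 1.56 in control libraries 1 to 6. All Zfp407 siRNA libraries lay below all control libraries, and in libraries 4 and 5 Dgat2 was the more abundant of the pair. The Dgat1 row (XLOC_011878) covers chromosome 15, 76477372 to 76512227, together with the row of Hsf1 (log2 fold change −0.08, limma adjusted p = 0.0768), with no exon bases shared. The Dgat2 row (XLOC_032054) is alone at chromosome 7, 99153663 to 99182713.

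**Figure D3:**
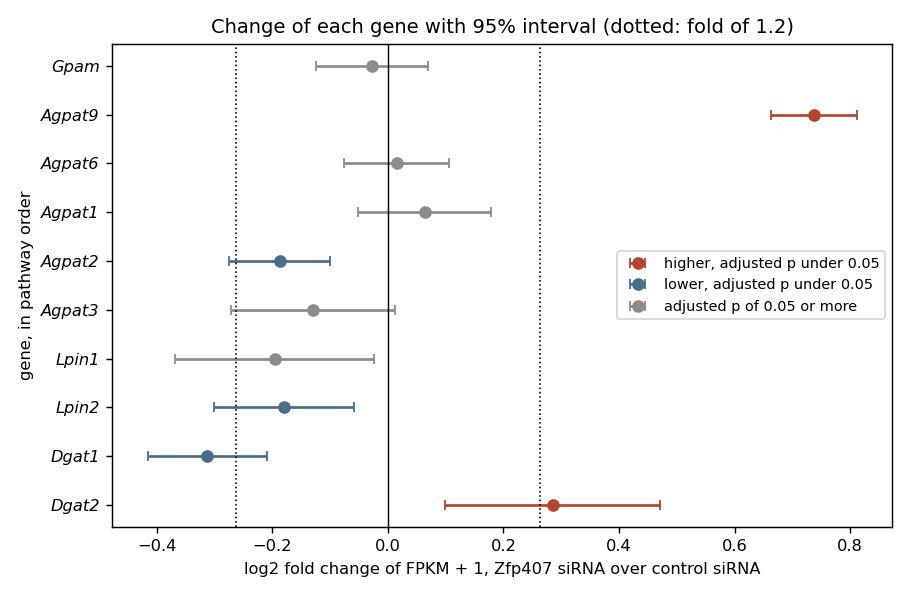
Log2 fold change of FPKM + 1, Zfp407 siRNA over control siRNA (horizontal axis), with its 95% interval for each gene in pathway order, dotted lines marking a fold of 1.2. The interval of Agpat9, 0.66 to 0.81, is the only one wholly beyond a dotted line, and those of Agpat2, Agpat3, Lpin1, Lpin2, Dgat1 and Dgat2 each cross one.

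By level, the 10 genes kept most of their order. In Zfp407 siRNA libraries the order from high to low was Agpat2, Dgat1, Dgat2, Agpat9, Agpat3, Agpat1, Lpin1, Gpam, Agpat6 and Lpin2. In control libraries it was Dgat1, Agpat2, Dgat2, Agpat3, Agpat9, Agpat1, Lpin1, Gpam, Agpat6 and Lpin2. Agpat9 stood above Agpat3 in Zfp407 siRNA libraries and below it in control libraries, with no overlap between the genes in either arm. Among control libraries, only the neighbours Dgat1 and Agpat2 overlapped. Among Zfp407 siRNA libraries, Agpat2 with Dgat1, Dgat1 with Dgat2, Agpat1 with Lpin1, and Lpin1 with Gpam overlapped. In control libraries, Dgat1 and Agpat2 were each more abundant than 95.9% of the rows tested, and Lpin2 than 47.4%.

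The spread between libraries was larger in the Zfp407 siRNA arm for 8 of the 10 genes, all but Agpat6 and Lpin2, and for 62.4% of all rows tested. The coefficient of variation of Dgat2 was 15.0% in Zfp407 siRNA libraries and 3.46% in control libraries, and that of Lpin1 was 13.6% in Zfp407 siRNA libraries and 5.67% in control libraries. For comparison, the median over all rows tested was 10.1% in Zfp407 siRNA libraries and 8.15% in control libraries. The genes did not vary together in 1 pattern: libraries 4 and 5 were high for Dgat2 and low for Dgat1 and Lpin2, libraries 1 and 3 were low for Lpin1, and library 6, with the highest mitochondrial share, was lowest of its arm for Agpat9, Agpat1, Agpat2 and Agpat3.

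**Figure D4:**
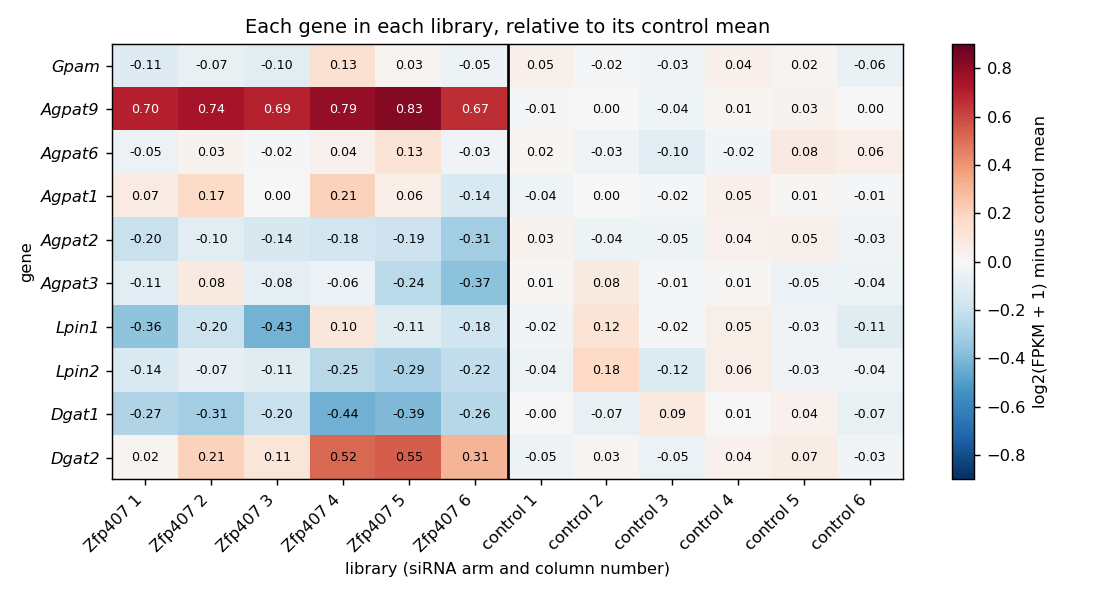
Log2(FPKM + 1) of each gene (rows, in pathway order) in each of the 12 libraries (columns, Zfp407 siRNA left of the black line, control siRNA right), minus the gene's control mean, with red for higher and blue for lower. Agpat9 runs from 0.67 to 0.83 in the Zfp407 siRNA libraries, Dgat2 reaches 0.52 and 0.55 in libraries 4 and 5, and control libraries stay within 0.18 of 0.

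The genes with the library profiles most like those of Agpat9 and Dgat1, the called genes with the largest rise and fall, were sought among 7803 rows of 1 gene name with a mean FPKM of at least 10, by the root mean square difference of log2(FPKM + 1) minus the control mean over the 12 libraries. Nearest to Agpat9 were Gda, a guanine deaminase, at 0.0731, Nr4a1, a nuclear receptor, at 0.0785, and Get4, a factor for the insertion of tail-anchored proteins, at 0.0911. Gda averaged 18.2 ± 0.480 FPKM in Zfp407 siRNA libraries and 11.2 ± 0.333 FPKM in control libraries (SD, n = 6 each). Nearest to Dgat1 were Trafd1 at 0.0338, Irf3, an interferon regulatory factor, at 0.0454, and Nit1 at 0.0625. Trafd1 averaged 77.5 ± 5.86 FPKM in Zfp407 siRNA libraries and 96.0 ± 3.53 FPKM in control libraries (SD, n = 6 each). These are descriptions of likeness over 12 libraries, chosen from many rows.

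Around the 10 genes, 62 other glycerolipid genes were listed in 4 groups, of which 45 were tested, 4 were higher, 13 were lower and 28 were not called. That is 37.8% called, beside 36.4% of all rows, with a median log2 fold change of −0.05, the same as that of all rows to 2 decimals. Only Aqp7 of the 45 passed the minimum fold of 1.2.

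The genes that supply glycerol and glycerol-3-phosphate held 0 higher and 2 lower of 7 tested (median log2 fold change −0.05). Of all rows tested, 11.6% were higher and 24.8% were lower. Aqp7, the glycerol channel of fat cells, fell to 15.4 ± 2.48 FPKM in Zfp407 siRNA libraries, against 29.9 ± 2.69 FPKM in control libraries (SD, n = 6 each; log2 fold change −0.92, limma adjusted p = 1.14e-05). Gpd1, which reduces dihydroxyacetone phosphate to glycerol-3-phosphate, fell to 684 ± 96.7 FPKM in Zfp407 siRNA libraries, against 836 ± 38.0 FPKM in control libraries (log2 fold change −0.30, limma adjusted p = 0.0173). Pck1, which feeds glyceroneogenesis and is named here after its values were seen, was not called, at 76.7 ± 20.96 FPKM in Zfp407 siRNA libraries and 72.8 ± 4.14 FPKM in control libraries (limma adjusted p = 0.891).

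Of 11 other acyltransferases tested, 0 were higher and 3 were lower, beside 11.6% and 24.8% of all rows (median log2 fold change −0.11). Lpcat3, which remodels phosphatidylcholine, fell to 164 ± 11.4 FPKM in Zfp407 siRNA libraries, against 213 ± 15.9 FPKM in control libraries (SD, n = 6 each; log2 fold change −0.37, limma adjusted p = 5.55e-04). Mboat7, a lysophosphatidylinositol acyltransferase, fell by 0.23 and Lpgat1, a lysophosphatidylglycerol acyltransferase, by 0.17 on the log2 scale (limma adjusted p = 0.0114 and 0.0422), both within the difference between arms seen in low rows. None of the 3 catalyses a step of the main route. The remaining glycerol-3-phosphate acyltransferase, Gpat2, and the monoacylglycerol acyltransferases Mogat1 and Mogat2, named here after their values were seen, were under 1 FPKM in both arms.

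Of 6 tested genes for other lipid phosphatases and the control of lipins, 0 were higher and 2 were lower (median log2 fold change −0.05). The shares of all rows were 11.6% higher and 24.8% lower. The 2 lower genes encode lipid phosphate phosphatases, Ppap2c (log2 fold change −0.23, limma adjusted p = 0.0203) and Ppap2a (−0.21, limma adjusted p = 0.00913). Both changes lie within the difference between arms seen in low rows. In the branch to phospholipids, 4 were higher and 6 were lower of 21 tested, beside 11.6% and 24.8% of all rows. The median log2 fold change of this branch was −0.05. Cds2, which turns phosphatidate into CDP-diacylglycerol, rose to 35.6 ± 3.71 FPKM in Zfp407 siRNA libraries, against 28.2 ± 4.52 FPKM in control libraries (SD, n = 6 each; log2 fold change 0.34, limma adjusted p = 0.0186). The falls were led by Ptdss2, which makes phosphatidylserine (log2 fold change −0.31, limma adjusted p = 5.71e-04), Chpt1, which makes phosphatidylcholine from diacylglycerol (−0.25, limma adjusted p = 0.0329), and Pcyt2, which acts in phosphatidylethanolamine synthesis (−0.21, limma adjusted p = 0.00324, within the difference between arms seen in low rows).

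Of 9 tested transcription factors known to act on lipid synthesis genes, 3 were higher and 1 was lower, beside 11.6% of all rows higher and 24.8% lower (median log2 fold change −0.04). Cebpa, a factor of adipocyte differentiation, rose to 111 ± 11.7 FPKM in Zfp407 siRNA libraries, against 84.2 ± 2.68 FPKM in control libraries (SD, n = 6 each; log2 fold change 0.39, limma adjusted p = 4.50e-04). Nr1h3, which encodes the oxysterol receptor LXR alpha, fell to 32.1 ± 3.12 FPKM in Zfp407 siRNA libraries, against 51.5 ± 5.40 FPKM in control libraries (log2 fold change −0.66, limma adjusted p = 8.00e-05). The other 2 that rose, named after their values were seen, were Srebf1 (log2 fold change 0.23, limma adjusted p = 0.0455) and Nr1h2, which encodes LXR beta (0.18, limma adjusted p = 0.00391), and both changes lie within the difference between arms seen in low rows. Pparg, also named after its values were seen, was not called, at 244 ± 21.9 FPKM in Zfp407 siRNA libraries and 255 ± 6.39 FPKM in control libraries (log2 fold change −0.07, limma adjusted p = 0.369). Usf2, named after its values were seen too, was not tested because its mean over all libraries was under 1 FPKM. It was at 1.14 ± 0.272 FPKM in Zfp407 siRNA libraries and 0.462 ± 0.0883 FPKM in control libraries.

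**Figure D5:**
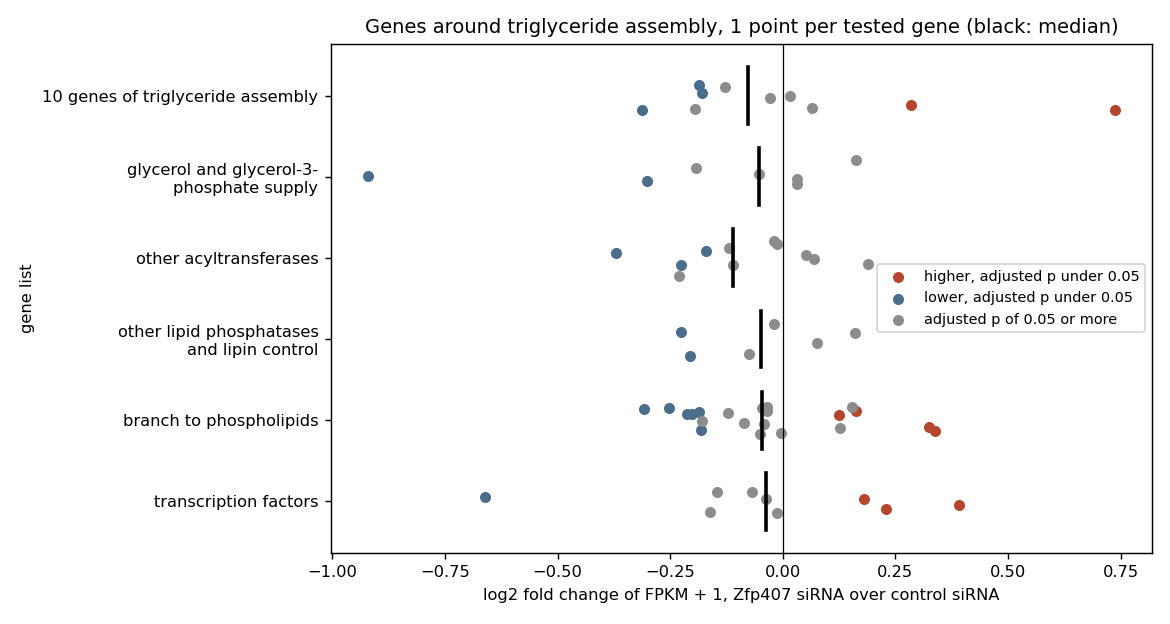
Log2 fold change of FPKM + 1, Zfp407 siRNA over control siRNA (horizontal axis), with 1 point per tested gene, for the 10 genes and the 5 lists around them, coloured by call, with black bars at the medians. Medians lie between −0.11 and −0.04, and Agpat9 at 0.74 lies furthest to the right and Aqp7 at −0.92 furthest to the left.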

How the data were processed

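RNA of 3T3-L1 adipocytes was sequenced in 12 libraries, 6 per arm. The authors' deposited table holds 1 FPKM value for every gene in every library. Per the file headers, it also gives pooled FPKM for the arms and the authors' comparison of them, as p-values, q-values and a log2 fold change, read as a score because infinite values are written as a number. Per the submitters' processing notes, Cufflinks 2.0.2, TopHat2 2.0.5, SAMtools 0.1.18.0 and Bowtie2 2.0.0.7 were among the tools. The sources used here give no genome build. Of 18473 rows of protein-coding genes, 99.6% overlapped their gene in GENCODE M21 (GRCm38), the build used for positions, counted from 1.

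FPKM hold no read totals, so absolute depth is unknown. The test was limma 3.58.1 under R 4.3.3 on log2(FPKM + 1), two-sided (lmFit and eBayes with an intensity trend, and treat for the minimum fold of 1.2), over the 14706 rows with a mean of at least 1 FPKM, with Benjamini-Hochberg adjustment. Fold changes on this scale understate those of low genes. The procedure was checked on simulated data drawn with the spread of the control libraries in both arms. The simulated data held no difference between arms of the kind seen in low rows, so the check does not cover it. Single genes were also tested by an exact permutation of mean FPKM over all divisions of the libraries. The worth of 1 read was taken from rows with a mean under 0.5 FPKM whose values were whole multiples within 2%. At most 0.0139% of nonzero tested values were identical between libraries of an arm.

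The genes and lists were chosen with earlier results of these data known. Of each list, the called gene with the largest rise and the 3 with the largest falls are named. Genes in rows naming several genes (Ctdnep1, Bscl2, Chkb, Pisd, Usf1, Cd68, Gata3) and Tamm41 were not used here. Alternatives were pseudocounts of 0.1 and 5, no filter and a filter at 5 FPKM, median centring, quantile normalisation, the minimum fold, and leaving out each library.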

Additional observations from a re-analysis of the deposited data

Results flagged for a closer look

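Of 36 groups of 6 values examined (the FPKM and the step shares of the genes, by arm), 1 held a library far from the rest. The share of Agpat1 in the summed FPKM of lysophosphatidate acylation was 13.5% in control library 1, the lowest of the 6 control libraries, with a gap to the next that took 0.674 of the group's range, above Dixon's 95% limit for 6 values. The rule flags about 1 in 20 groups by chance. The mean share was 16.1% ± 0.705 in Zfp407 siRNA libraries and 14.06% ± 0.270 in control libraries (SD, n = 6 each).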

How the results depend on the processing

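Each of the 10 genes was recomputed under 19 alternatives, 190 values in all, of which 176 kept their direction and their side of the threshold, 8 lost the call, 2 gained it and 4 changed sign. Agpat9 was called under all 19, with log2 fold changes of 0.71 to 0.78. Agpat2, Dgat1 and Dgat2 lost the call only against a minimum fold of 1.2, under which 1 of the 10 genes was higher and 0 were lower, and 856 rows were called, 313 higher and 543 lower, against 5360, 1712 and 3648 without it. The 4 that changed sign were never called: Gpam was 0.0056 with centring on library medians and 0.024 with quantile normalisation, and Agpat6 ran from −0.0071 to 0.031 when single libraries were left out, below 0 without control library 3 (limma adjusted p = 0.926) and without Zfp407 siRNA library 5 (limma adjusted p = 0.909). Centring moved the split over all rows to 2307 higher and 3146 lower. Without Zfp407 siRNA library 6, with the highest mitochondrial share, the step share of Agpat9 differed by 12.7 percentage points between arms, against 12.6 with it, and that of Dgat1 by −10.3, against −10.2. Causes were not tested. Summing all rows of a gene changed nothing, as each has 1 row. No paired analysis was possible because the knockdown columns carry numbers 1 to 6, which are not the sample numbers of the labels. Depth is known only in relative terms, so no counting error can be given.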
